A study of Mus musculus with 8 samples.

Results

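In mouse liver, 2019 m6A peaks called in the Wtap flox/flox controls shared no base with any peak called after hepatocyte deletion of Wtap, although the same genes still carried a peak elsewhere. These 2019 peaks are called lost here. They were chosen by 2 conditions on the peak lists: the peak's gene had a peak in both genotypes (a retained gene), and the peak's exonic blocks shared 0 bases, on the same chromosome and strand, with any Wtap-HKO block. They made up 12.9% of the 15635 Wtap flox/flox peaks and lay in 1666 of 8096 retained genes. Lost means absent from a list of called peaks. It is not a measured decrease in methylation, since the lists give no value for the other genotype where no peak was called.

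The 2 genotypes were Wtap flox/flox mice, in which loxP sites flank exon 4 of Wtap, and Wtap-HKO mice, which carry the same floxed alleles and Alb-Cre. All were C57BL/6 mice on normal chow, and livers were taken at 8 weeks. Each genotype had 2 m6A immunoprecipitation (IP) libraries and 2 matching input libraries of poly(A)+ RNA, and the RNA of each replicate was pooled from several mice. Alb-Cre is active in hepatocytes, so the other cells of the Wtap-HKO liver keep Wtap, and fewer methylated transcripts, fewer transcripts and fewer cells of a type cannot be told apart in whole liver. The controls carry the floxed alleles without Cre, so an effect of Cre itself cannot be told apart from that of the deletion.

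m6A is a methyl mark on adenosine in mRNA, written in the nucleus mainly at a GGACU-like sequence by the METTL3-METTL14 enzyme pair, and WTAP is the adaptor that holds this writer complex in place. In most tissues the mark is densest around stop codons and in 3′ untranslated regions, and it is known for directing mRNA decay, splicing and translation through reader proteins. Antibodies to m6A also bind m6Am, a mark next to the cap that another enzyme makes. In the liver, hepatocyte mRNAs for metabolic enzymes, transporters and plasma proteins dominate the RNA pool.

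Each genotype had 1 list of peaks for its 2 replicates, and whether a peak had to be present in both is not given in the sources used here, so a lost peak may be missing in 1 or in both Wtap-HKO replicates. No peak has a replicate value or an SD, no difference between genotypes could be tested, and the intervals given here are 95% intervals for counting error only. These intervals treat peaks as independent, although peaks of 1 gene are not. Read depth is not in the lists. Of 10 hepatocyte marker genes, 6 had a Wtap flox/flox peak and 7 a Wtap-HKO peak. For Kupffer cell and leukocyte markers the numbers were 4 and 9 of 10, for endothelial markers 5 and 5 of 8, for stellate cell and fibroblast markers 4 and 7 of 8, and for bile duct markers 2 and 3 of 5. The part of this difference in the peak calls was not tested. In the retained genes among these markers, 3 of 15 hepatocyte peaks were lost (20%, 7.05 to 45.2), and none of the 7, 7, 7 and 2 peaks of the other 4 lists, beside 13.9% over all peaks of retained genes. These counts allow a wide range, since the interval for 0 of 7 reaches up to 35.4%. Wtap itself had 3 Wtap flox/flox peaks and none was lost. Their fold enrichments were 8.06, 20.7 and 8.78 in the controls, and the 3 Wtap-HKO peaks of the gene had 4.47, 20.5 and 20.6. Fold enrichment is the ratio of IP to input reads in the peak, and since exon 4 was not placed relative to the peaks, they do not check the deletion.

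The sequence of a few lost peaks near gene starts could be read from RefSeq windows of GRCm38.p6, which run from 250 nt before to 50 nt after each start. Windows touched 64 of the 2019 lost peaks and covered at least 50 nt of 31. The motif GGACT, searched on the transcribed strand only, was in 3 of these 31 (9.68%, 3.35 to 24.9), and its core GGAC, which every GGACT also holds, was in 9 (29.0%, 16.1 to 46.6). In the overlapped Wtap flox/flox peaks of retained genes read in the same way, 68 of 639 held GGACT (10.6%, 8.48 to 13.3) and 214 held GGAC (33.5%, 29.9 to 37.2). Per 1000 nt read, GGACT matches numbered 1.21 in lost and 1.35 in overlapped peaks. Among all 32851 windows, 10.8% held GGACT and 33.4% held GGAC in their last 106 nt, the median stretch read in lost peaks. Over the full 300 nt, GGACT was on the transcribed strand of 26.1% of windows and on the other strand of 26.0%. The matches in lost peaks are shown because they are the letters of the mark's usual site, with GGACT in capitals.
Pcyt1a, chr16:32431169-32431193, plus strand: acagccaagaGGACTgtgacccagg
Pcyt1a, chr16:32431232-32431256, plus strand: taaatgcgagGGACTctgacctcgg
Ralgapb, chr2:158409960-158409984, plus strand: acgggtggacGGACTgactgccggt
Gm28557, chr13:67098159-67098183, minus strand: gatgtcgaaaGGACTtttaaaggtt
Eme2, chr17:24895041-24895065, minus strand: caggaacgaaGGACTtatggcggag

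Both Pcyt1a matches lay in a single 120-nt peak with a fold enrichment of 5.49, at 0.68% of the gene span. Pcyt1a encodes the rate-limiting enzyme of phosphatidylcholine synthesis, and its nearest Wtap-HKO block was 40225 nt away. The lost Ralgapb peak had a fold enrichment of 16.7 and a gap of 77055 nt to the nearest Wtap-HKO block. The Gm28557 stretch is in the window of Zfp708, and the Eme2 peak was read over 20 nt only, so it is not among the 31. For the other lost peaks no sequence was read, and the windows hold gene starts, where lost peaks were few.

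Of the 14535 Wtap flox/flox peaks in retained genes, 2019 were lost, which is 13.9% (13.3 to 14.5), and 12516 shared at least 1 base with a Wtap-HKO peak and are called overlapped. In the other direction, 3479 of 15882 Wtap-HKO peaks of retained genes (21.9%) shared no base with a Wtap flox/flox peak, so calls that appear in only 1 list were not limited to the controls. A further 1100 Wtap flox/flox peaks lay in 924 genes without any Wtap-HKO peak and are not members. Most genes lost a single peak. There were 1390 genes with 1 lost peak, 218 with 2, 45 with 3, 8 with 4, 4 with 5 and 1 with 6. In 1414 genes at least 1 other Wtap flox/flox peak was overlapped, and in 252 genes every one was lost. Loss was less frequent in genes with a single Wtap flox/flox peak, at 5.16% (4.53 to 5.87), than in genes with 2 peaks, at 15.6% (14.6 to 16.7), and it reached 22.3% (19.3 to 25.6) of the 686 peaks in genes with 6 or more. A gene is retained through any Wtap-HKO peak, so a gene's only peak could be lost only where the Wtap-HKO peak was elsewhere.

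The gap between a lost peak and the nearest Wtap-HKO block on its strand had a median of 1409 nt, with quartiles of 366 and 10432 nt. It was at most 1000 nt for 899 peaks (44.5%) and above 10000 nt for 517 (25.6%). At the edge of the rule, the smallest gap was 28 nt, and 37 peaks had a gap of at most 30 nt. The lost peaks nearest to a Wtap-HKO block were in Tapbp, which encodes tapasin (181 nt, fold enrichment 27.2), Gtpbp6 (91 nt, 23.7) and ENSMUSG00000112909 (90 nt, 9.22), each 28 nt away. Just outside the rule, peaks of Csrnp2, Fam198a and Zfp605 shared 1 base with a Wtap-HKO block, with fold enrichments of 43.0, 37.8 and 32.5. In all, 65 overlapped peaks, these 3 included, shared at most 30 bases, and 904 shared less than 50% of their bases.

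Lost peaks were weaker and shorter than overlapped ones. Their median fold enrichment was 3.51 (quartiles 2.43 and 5.60, range 1.23 to 49.2), against 6.07 (3.75 and 10.5) in overlapped peaks. Their median exonic length was 180 nt against 300 nt, and their median log10 false discovery rate (FDR) was -9.22 against -28.4. Only 6.79% (5.77 to 7.97) of lost peaks crossed a splice junction, that is, had more than 1 exonic block, compared with 16.3% (15.7 to 17.0) of overlapped peaks. Peaks of the genes without a Wtap-HKO peak were similar in strength, with a median fold enrichment of 4.03 and a median length of 180 nt. These values come from the calls that the rule used, and they describe the set without supporting it. Length bears on the rule, since 1 shared base is enough for overlap, and the junction shares were not compared at equal length.

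Over all positions, the share of peaks that were lost dropped with strength by fold enrichment, FDR and length. By quartile bins of fold enrichment it was 27.2%, 14.8%, 7.95% and 5.59% from the weakest to the strongest. By quartile bins of FDR, from the largest to the smallest, it was 28.6%, 15.4%, 8.38% and 3.14%. By quartile bins of exonic length it was 28.9%, 16.7%, 6.94% and 1.66%, so that only 59 of the 3549 longest peaks were lost. Within the first 10% of the gene span the order by fold enrichment was the opposite, with 6.92%, 7.07%, 9.16% and 12.02% lost, and the intervals of the 4 bins overlapped (5.34 to 8.92 in the lowest and 8.45 to 16.8 in the highest). The 2 rankings of strength did not pick the same members. All 77 lost peaks enriched at least 20-fold had a log10 FDR between -12.8 and -4.35, whereas the 67 lost peaks with an FDR under 1e-100 had a median fold enrichment of 2.44 and none above 9.98. The 77 peaks had only 44 distinct pairs of fold enrichment and FDR, and 7 of them had the same pair (25.5 and -5.85). The read counts behind these ratios are not in the lists.

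**Figure D1:**
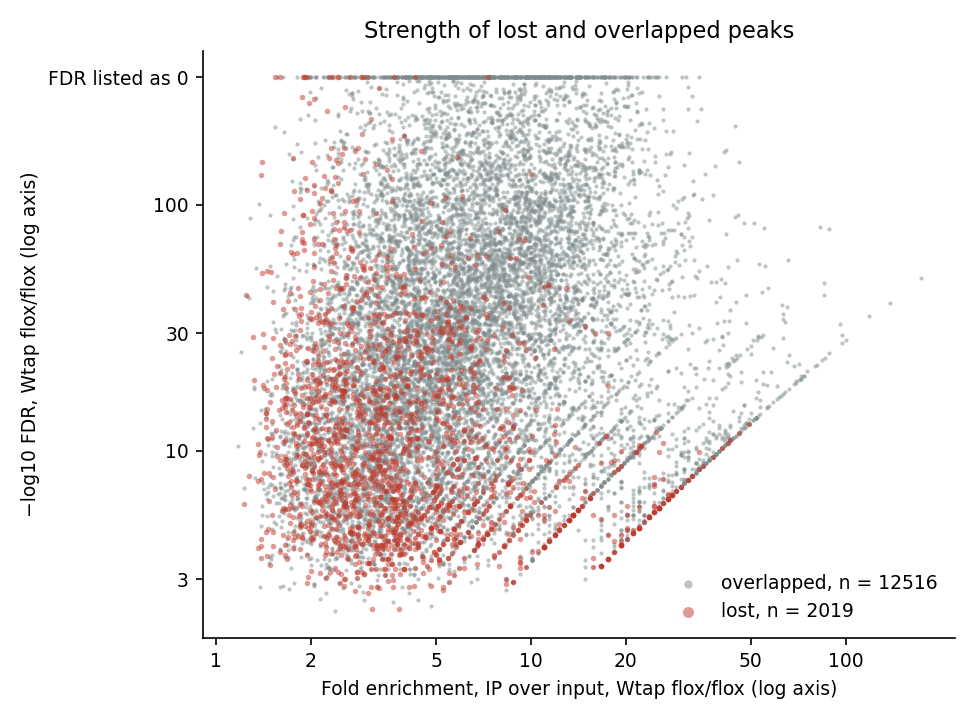
Fold enrichment (log axis) against −log10 FDR (log axis) of the 14535 Wtap flox/flox peaks in retained genes, 1 point per peak, with lost peaks in red and overlapped peaks in grey and with an FDR listed as 0 drawn at the top. Lost peaks lie mostly at low fold enrichment and at modest FDR, and those with a fold enrichment of at least 20 lie along the lower edge of the cloud, with a log10 FDR no lower than -12.8.

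The position of a peak along its gene was not itself a condition of the rule. The rule did use where Wtap-HKO blocks lie, so the positions of lost peaks depend in part on where Wtap-HKO peaks were called. Gene spans from RefSeq were matched for 1836 lost peaks (90.9%) and 11307 overlapped peaks (90.3%), and the middle of each peak was placed on the span, introns included. In the final 10% of the span lay 47.8% of lost peaks (45.5 to 50.1) and 41.2% of overlapped peaks (40.3 to 42.2), a difference of 6.58 percentage points (4.13 to 9.04). In the first 10% lay 8.66% of lost peaks (7.46 to 10.03) and 16.2% of overlapped peaks (15.5 to 16.9), a difference of -7.52 points (-8.91 to -6.00). Equally, 15.8% (14.9 to 16.8) of all peaks in the final 10% were lost, but only 7.99% of peaks in the first 10%. In the span between, 14.2% (13.3 to 15.2) were lost, an interval that overlapped that of the final 10%. With 1 peak per gene, the one of highest fold enrichment, the difference in the final 10% was 2.86 points (-1.69 to 7.45), an interval that holds 0. Over all peaks, the lost ones were placed more towards the 3′ side, but not right at the 3′ end. They had an edge within 200 nt of the annotated end about as often as overlapped peaks (difference 0.36 points, -1.04 to 1.91), and the median distance to the end was 2282 nt against 2806 nt.

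**Figure D2:**
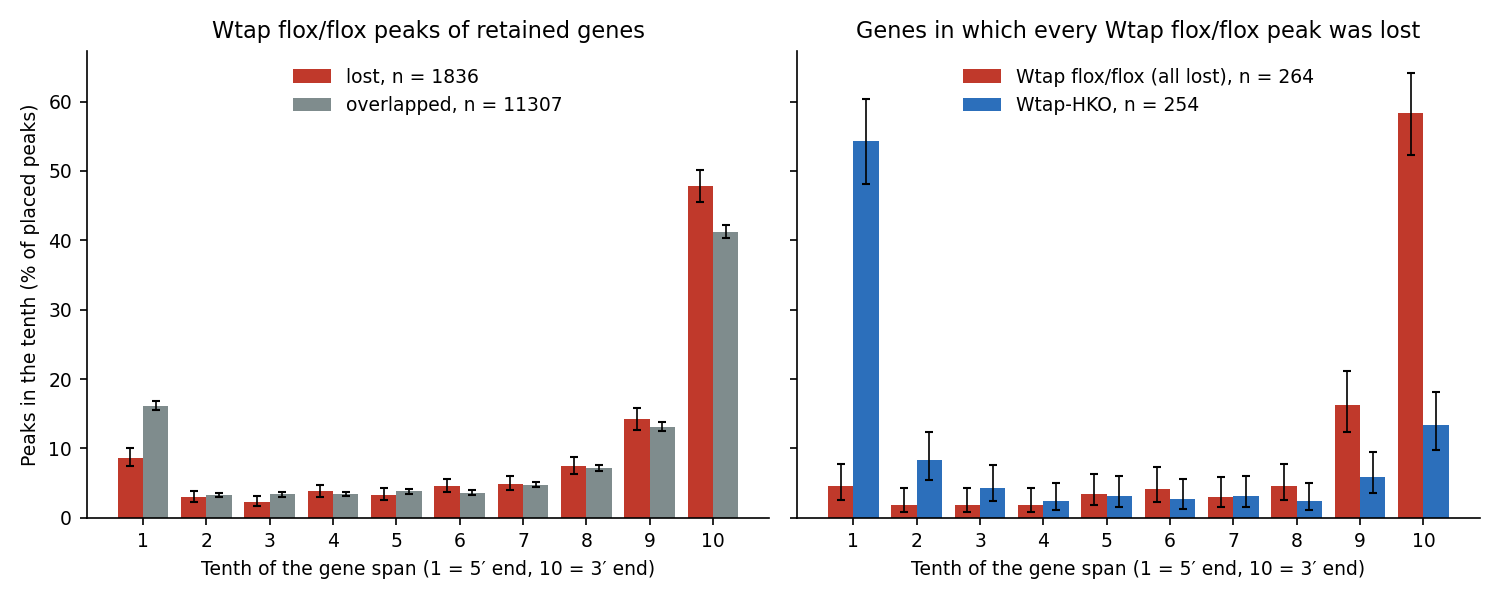
Share of placed peaks in each of 10 equal bins of the gene span from the 5′ end (1) to the 3′ end (10), with 95% Wilson intervals for counting error; left, lost (n = 1836) and overlapped (n = 11307) Wtap flox/flox peaks of retained genes, and right, the Wtap flox/flox peaks (n = 264) and Wtap-HKO peaks (n = 254) of the genes in which every Wtap flox/flox peak was lost. On the left, lost peaks are below overlapped peaks in bin 1 and above them in bin 10, and on the right the 2 genotypes have their highest bars at opposite ends.

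The difference in position depended on the strength of the peaks and on how strength was ranked. Among peaks in the lowest quartile bin of fold enrichment (up to 3.47), 55.9% of lost and 32.2% of overlapped peaks were in the final 10%, a difference of 23.7 points (19.9 to 27.4). In the next bin the difference was 6.09 points (1.36 to 10.9), in the third bin -8.04 points (-13.9 to -1.74) and in the highest -19.6 points (-26.1 to -12.1). Thus the lost peaks of highest fold enrichment lay less often at the 3′ end than overlapped peaks of like fold enrichment. When peaks were split by FDR instead, an alternative added after the data were seen, lost peaks had the larger share in the final 10% in each bin, by 2.21 points (-1.42 to 5.90) in the bin of largest FDR and by 17.4 (12.7 to 21.99), 24.4 (18.4 to 29.99) and 18.1 points (8.70 to 26.3) in the others. In the first 10%, lost peaks had the smaller share in all 4 FDR bins (-8.22, -15.2, -13.3 and -8.92 points). By fold enrichment the first 10% turned as well, from -24.8 and -11.1 points in the 2 lower bins to 2.22 (-1.64 to 7.09) and 10.5 points (5.38 to 17.0) in the 2 higher ones.

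**Figure D3:**
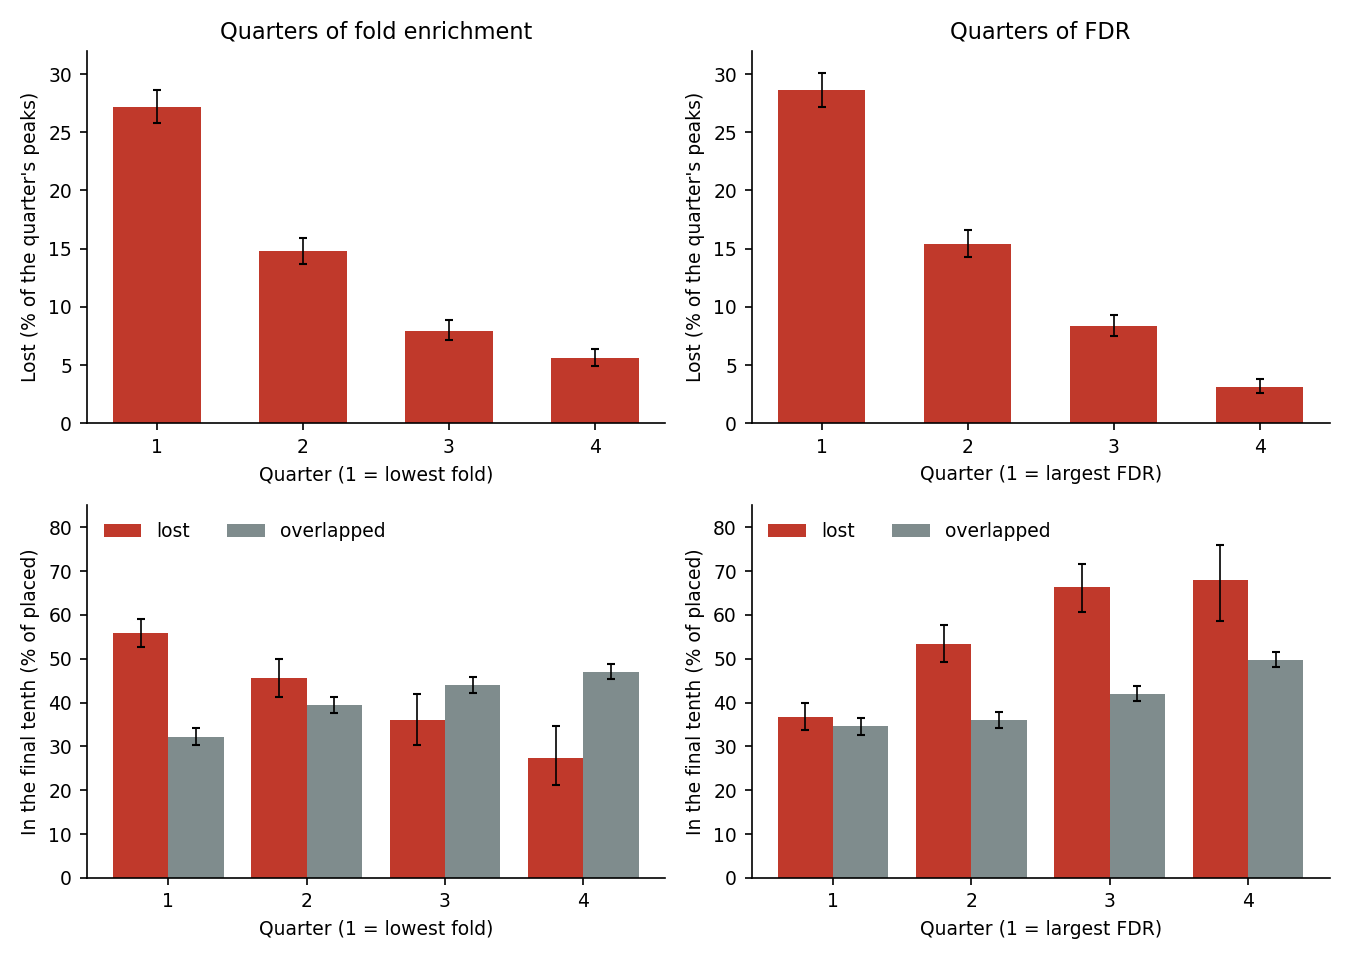
Share of peaks lost (top) and share of placed lost and overlapped peaks in the final 10% of the gene span (bottom), by quartile bins of fold enrichment (left) and of FDR (right), with 95% Wilson intervals for counting error. The share lost steps down in both rankings, while the bottom left panel turns from a higher share in lost peaks (bin 1, 55.9% against 32.2%) to a lower one (bin 4, 27.4% against 47.0%), and the bottom right panel does not turn.

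The 2 extremes of the set showed this contrast. Of the lost peaks enriched at least 20-fold, 10 of 58 placed peaks (17.2%, 9.64 to 28.9) were in the final 10%, and their median length was 151 nt. Of those with an FDR under 1e-100, 42 of 62 (67.7%, 55.4 to 78.0) were in the final 10% and 1 was in the first, and their median length was 299 nt. Overlapped peaks past the same limits had 46.5% and 50.8% in the final 10%.

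In the 1414 genes that had both lost and overlapped peaks, 863 of 1721 lost peaks (50.1%, 47.8 to 52.5) lay 3′ of every overlapped peak, 544 (31.6%) lay 5′ of all of them and 314 (18.2%) lay between. The 3′ side held 57.7% of the lost peaks in the lowest quartile bin of fold enrichment and 38.6% in the highest, where 49.4% lay on the 5′ side. In 313 of the 1414 genes (22.1%) the gene's highest fold enrichment was at a lost peak. Seen from the lost peak, the nearest Wtap-HKO peak of the same gene was on the 5′ side for 1306 of 2019 (64.7%, 62.6 to 66.7), at a median of 1965 nt in the genome. This too follows in part from where lost peaks lie, since a peak near the 3′ end has most of its gene on the 5′ side.

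The 252 genes in which every Wtap flox/flox peak was lost had 298 Wtap flox/flox and 290 Wtap-HKO peaks. Most, 218, had a single Wtap flox/flox peak, 26 had 2 and 8 had 3 or more. Of the placed Wtap flox/flox peaks, 58.3% (52.3 to 64.1) were in the final 10% and 4.55% in the first. Of the placed Wtap-HKO peaks, 13.4% (9.74 to 18.1) were in the final 10% and 54.3% (48.2 to 60.3) in the first. All Wtap-HKO peaks were 5′ of the lost peaks in 216 genes (85.7%, 80.9 to 89.5), 3′ in 25 and mixed in 11. The rule kept the peaks of these genes apart, and with most control peaks near the 3′ end, most of the remaining span lay on their 5′ side, so this share is a description and no expected share was computed. Among all 3479 Wtap-HKO peaks of retained genes without a Wtap flox/flox partner, the final 10% held 21.1% and the first 10% 41.4%, so Wtap-HKO peaks near gene starts were frequent outside these 252 genes as well.

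Single genes show the arrangement. Cat, which encodes catalase, had 1 peak in each list. The Wtap flox/flox peak lay at 98.4% of the span (fold enrichment 1.89), and the Wtap-HKO peak lay at 0.12% (2.14), 30538 nt away. For Casp9, which encodes an initiator caspase, the Wtap flox/flox peak was at 90.4% of the span with a fold enrichment of 6.00, and the Wtap-HKO peak was at 1.0% with 29.8. Herpud1, a gene of the endoplasmic reticulum stress response, had a Wtap flox/flox peak at 94.4% (3.02) and a Wtap-HKO peak at 1.78% (6.69). Serpinf2, which encodes the plasmin inhibitor alpha-2-antiplasmin, had peaks at 90.6% (2.89) and 13.8% (1.68). In all 4 genes the control peak was near the 3′ end and the Wtap-HKO peak on the 5′ side. Socs2, a feedback inhibitor of growth hormone signalling, had the opposite order. Both of its Wtap flox/flox peaks, which cover nearly the same bases, were at 13.0% of the span (8.49 and 5.19), and its Wtap-HKO peak was at 87.0% (7.90).

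In other genes a 5′ peak was called in both lists and the 3′ peak in the controls only. Abcc2, the pump that exports conjugates into bile, kept a peak at its start (fold enrichment 3.91 in the controls and 9.40 in Wtap-HKO) and lost the peak at 98.7% of the span (3.66). Slc27a2, a very long chain acyl-CoA synthetase, kept its peak at the start (4.90 and 7.60) and lost the peak at 99.1% (2.28). Abcg5, a subunit of the hepatic sterol exporter, kept the peak at 0.66% (4.39, with a Wtap-HKO peak of 5.66) and lost the one at 99.5% (3.04). Cyp3a13, a drug-metabolising cytochrome P450, kept the peak at 12.5% (6.41 and 12) and lost the one at 96.2% (2.77). F9, which encodes coagulation factor IX, kept the peak at 0.67% (4.05 and 6.93) and lost the one at 94.5% (2.41). For each of these 5 genes, which are chosen examples, the fold enrichment at the kept 5′ peak was the higher in Wtap-HKO. The difference could not be tested, and how often it occurred among all kept 5′ peaks was not counted.

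**Figure D4:**
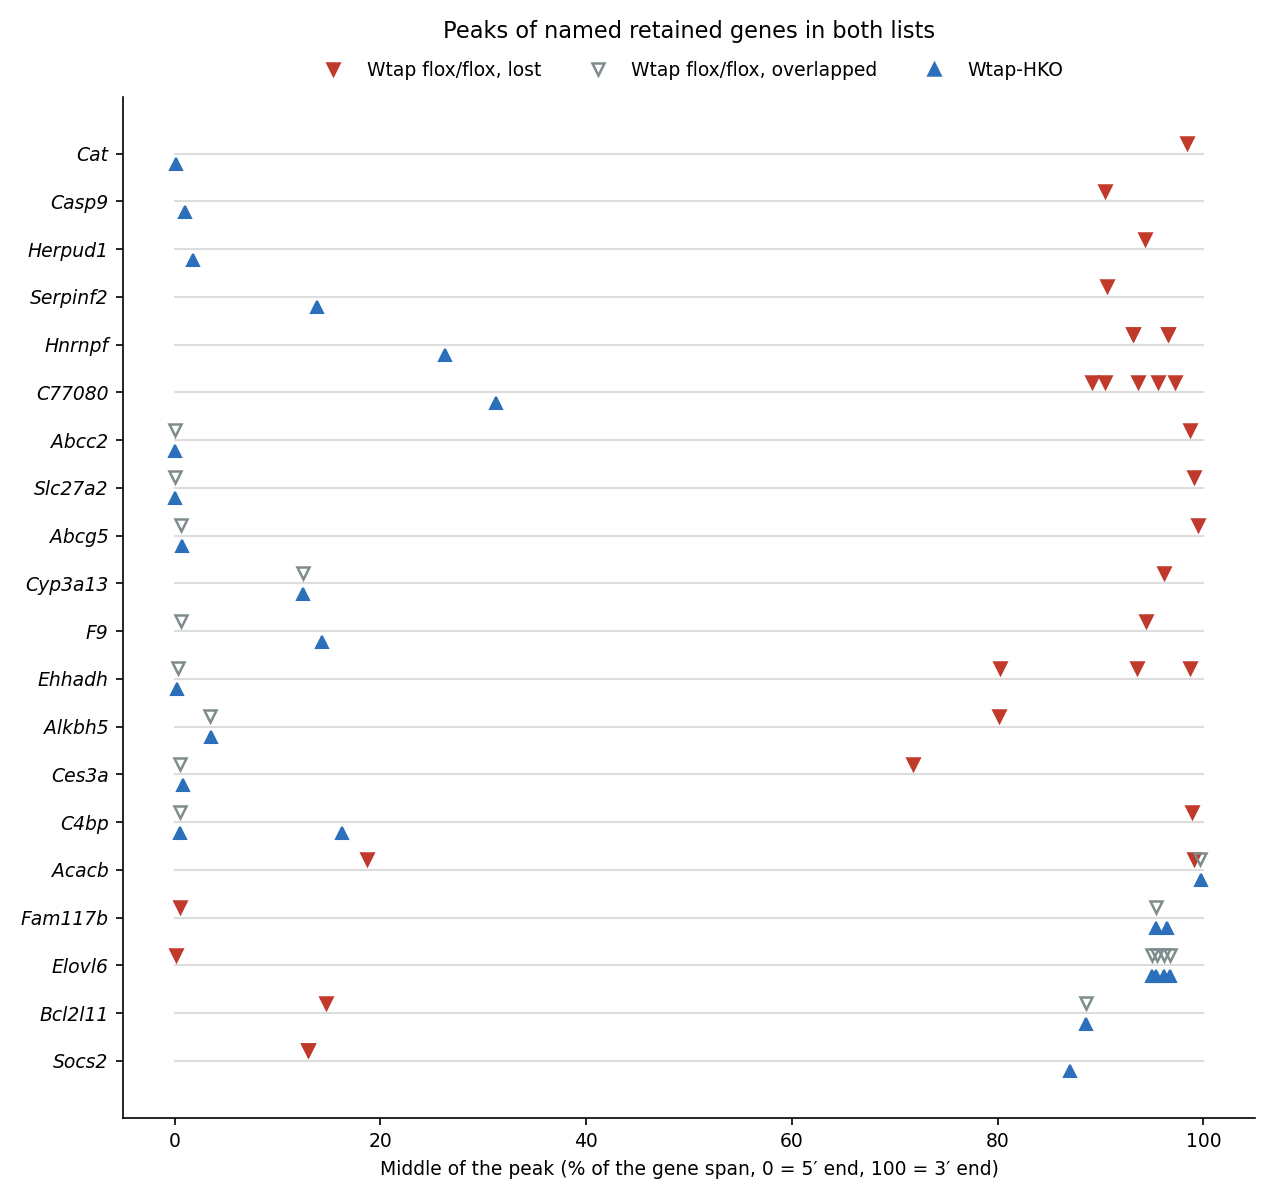
Middle of each peak as a percentage of the gene span from the 5′ end (0) to the 3′ end (100) for named retained genes; red triangles are lost Wtap flox/flox peaks, open triangles overlapped ones and blue triangles Wtap-HKO peaks. In the genes from Cat to C4bp the lost peaks lie on the 3′ side of the Wtap-HKO peaks, in Fam117b, Elovl6, Bcl2l11 and Socs2 on the 5′ side.

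The 8 lost peaks of highest fold enrichment were in genes of varied function. Eef1b2, a subunit of translation elongation factor 1, had the highest value at 49.2 (149 nt, chr1:63179742-63179890, log10 FDR -12.8), at 81.6% of the span. A second Eef1b2 peak, at 46.3%, was called in both lists at 1.44 in the controls and 1.52 in Wtap-HKO. Zfp945, a zinc finger gene, lost a 450-nt peak of 45.7 (chr17:22851005-22851454) and kept one of 11.5, and a Wtap-HKO peak of 19.0 lay 208 nt from the lost one. Mrpl38, a mitochondrial ribosomal protein gene, lost both of its peaks, of 43.0 at 8.08% and of 2.37 at 97.9% of the span, and its single Wtap-HKO peak (1.71) lay 59 nt from the first. Gm340 lost a peak of 42.2, between 2 kept peaks. These 4 had a Wtap-HKO peak within 879 nt of the lost peak.

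The next 4 were further apart with one exception. Hnrnpll, a splicing regulator, lost a peak of 40.4 at 42.9% of the span (chr17:80048055-80048325), 5304 nt from the kept peak at its start, which had 3.77 in the controls and 9.94 in Wtap-HKO. Fam117b lost a 121-nt peak of 37.8 at 0.54% of the span (chr1:59913336-59913456) and kept its 3′ peak, which had 54.2 and 24.0. ENSMUSG00000108555 had a lost peak of 35.1 with a Wtap-HKO peak 59 nt away. Ston2, which encodes an endocytic adaptor, lost a peak of 34.3 at 95.6% of the span, 5817 nt from the nearest Wtap-HKO block. With a log10 FDR between -12.8 and -8.65, none of these 8 peaks was among those of smallest FDR.

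The 17 lost peaks with an FDR listed as 0, which were named after their values had been seen, included several genes of liver metabolism and of plasma proteins. Apcs, which encodes serum amyloid P component, lost a 530-nt peak of 4.27 in the body of its short gene and kept the 5′ one, of 5.0 and 9.52. Ehhadh, a peroxisomal beta-oxidation enzyme, lost 3 peaks of 2.90, 1.77 and 1.42 between 80.3% and 98.7% of the span. Only the Ehhadh peak of 2.90 had an FDR listed as 0. The gene kept the peak at its start, of 9.23 and 11.8. C4bp, a complement inhibitor, lost the peak at 98.9% (2.66). Apob, the structural protein of very low density lipoproteins, lost 2 of 8 peaks, of 2.32 and 1.92, within its long coding region, 119 and 329 nt from Wtap-HKO blocks. Only the Apob peak of 1.92 had an FDR listed as 0.

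Tmbim6, an inhibitor of cell death in the endoplasmic reticulum, lost a peak of 1.90 at 97.7% of the span and kept its neighbour at 95.6% (1.54 and 1.33). Nat8f2 (2.35), Rdh7 (1.94) and Ces3a (1.59) belong to families with similar copies in the genome, so their peaks may hold reads of relatives and are uncertain. The peak of Hsd3b7, a bile acid synthesis gene, (2.44) and that of AC149222.1 (2.43) cover the same bases on the same strand and are 1 site counted under 2 gene identifiers. Cat, Herpud1, Serpinf2, Abcc2 and Slc27a2, described above, were also among the 17. The median fold enrichment of the 17 was 2.43, so a very small FDR went with a modest ratio.

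Some genes lost several peaks. Eppk1, which encodes epiplakin, a cytoskeletal linker, lost 6 of 8 peaks, with fold enrichments between 2.73 and 7.22 and positions from 2.64% to 94.4% of the span, and its 2 Wtap-HKO peaks coincided with the 2 kept ones. Exph5, an effector of Rab27, lost 5 of 6 peaks (3.81 to 9.54), and only the peak at 90.9% of the span was kept (5.97 and 4.31). Sowahb lost 5 of 7 peaks (2.80 to 9.84). Nlrp12, an innate immune regulator, lost 5 of 6 peaks (1.86 to 4.02) and kept the strongest one (10.5 and 4.06). In Eppk1 (kept peaks of 3.90 and 4.86), Exph5 and Sowahb some lost peaks were stronger than the kept ones, which in Nlrp12 was not so.

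C77080 lost all 5 of its peaks, with fold enrichments from 2.09 to 2.99 and positions between 89.2% and 97.2% of the span. Its single Wtap-HKO peak had a fold enrichment of 10.4 at 31.3% of the span, at least 23968 nt away. Btbd8 lost all 4 peaks (4.39 to 18.4), which lay on both sides of a Wtap-HKO peak of 3.26 and between 355 and 2176 nt from it. Hnrnpf, a splicing factor gene, also had 4 lost peaks (3.37 to 8.34), but they form 2 pairs that cover nearly the same bases, at 93.2% and 96.6% of the span, and so are 2 sites. Its Wtap-HKO peak lay at 26.3% (5.51). Over the whole set, 20 lost peaks shared bases with another lost peak of the same gene.

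Gene lists of liver functions were then counted against the 13.9% of all peaks in retained genes. Among metabolic lists, the share lost was 34.4% for fatty acid oxidation and ketogenesis (11 of 32 peaks, 20.4 to 51.7), 27.3% for cholesterol and bile acids (9 of 33, 15.1 to 44.2), 27.3% for lipogenesis and triacylglycerol synthesis (6 of 22, 13.2 to 48.2) and 20.6% for fatty acid uptake, lipid droplets and lipoprotein assembly (7 of 34, 10.3 to 36.8). The interval lay above 13.9% in the first 2. For fatty acid oxidation this did not hold among peaks with a fold enrichment of 2 or more (3 of 21, 14.3%, 4.98 to 34.6, against 12.8% of all such peaks). It held 13.9% for the urea cycle and amino acid catabolism (5 of 35, 14.3%), cytochrome P450 and conjugation enzymes (5 of 37, 13.5%), plasma proteins (6 of 46, 13.0%) and glucose handling and insulin or IGF signalling (9 of 54, 16.7%). The lists are small, and their peaks also differed in strength. The median fold enrichment of the lost peaks was 1.74 in the fatty acid oxidation list against 3.51 for the whole set. Of the 8 peaks of this list enriched at least 5-fold, none was lost. This count allows a share of up to 32.4%, beside 7.53% over all such peaks.

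In fatty acid oxidation, the 11 lost peaks were in 8 genes, among them Acsl1, Bdh1, Cpt2, Ehhadh, Etfdh, Ppara and Slc25a20, and 7 lay in the final 10%. Ppara, the nuclear receptor that drives this pathway, lost a peak of 2.32 at 87.8% of the span and kept 3 peaks further 3′, of 13.1, 4.78 and 4.8 (6.54, 2.44 and 2.72 in Wtap-HKO). In the cholesterol list, 9 genes lost 1 peak each (Abcg5, Abcg8, Fdft1, Insig1, Insig2, Lss, Nr1h4, Slc10a1 and Sqle), 6 of them in the final 10%. Insig1, which restrains sterol synthesis, lost a peak of 3.09 at 85% of the span, 148 nt from a Wtap-HKO block. In lipogenesis, Acacb, an acetyl-CoA carboxylase, lost peaks of 3.05 at 18.7% and of 5.55 at 99.1% and kept the last peak of the gene (3.36 and 2.44). Elovl6, a fatty acid elongase, lost a peak of 6.15 at 0.10% of the span and kept all 4 peaks near its 3′ end. Fitm2, a lipid droplet gene, lost 2 peaks, of 2.45 and 1.60, on either side of a kept peak (4.95 and 2.28).

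**Figure D5:**
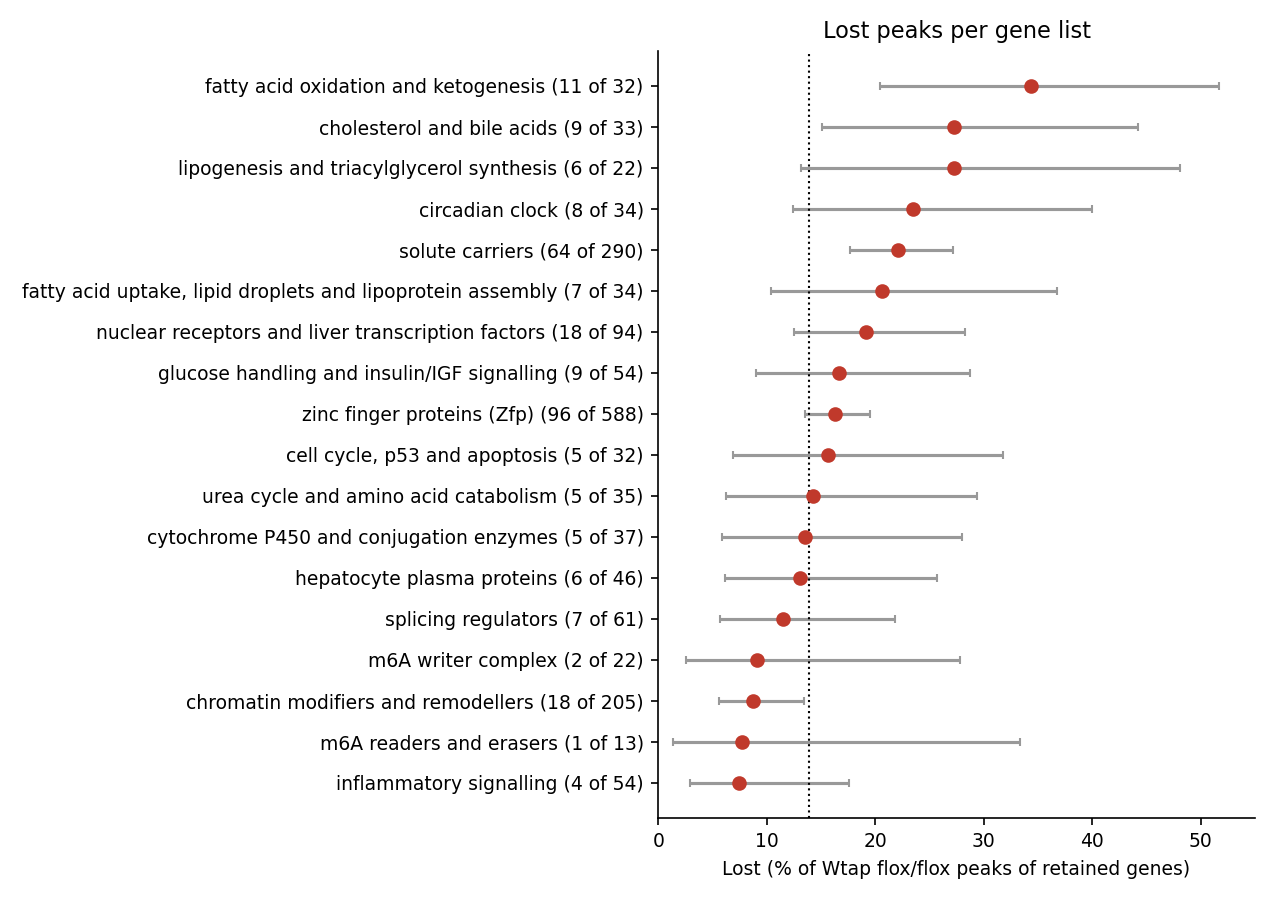
Share of the Wtap flox/flox peaks of retained genes that were lost, for each gene list (points, with 95% Wilson intervals for counting error and the number lost of all in brackets), beside the share over all such peaks, 13.9% (dotted line). Fatty acid oxidation, cholesterol and bile acids, and solute carriers lie to the right of the line with their whole interval, chromatin modifiers lie to its left, and the other intervals cross it.

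The remaining metabolic lists each had a few members. Among glucose and insulin genes, Irs1, the insulin receptor substrate, lost 3 of 7 peaks (8.00, 3.42 and 8.16), all between kept peaks, and Foxo3, a transcription factor under insulin control, lost 1 of 4 (5.90 at 30.7% of the span). Among plasma proteins, Serpinc1, which encodes antithrombin, lost a peak of 4.26 that lies beyond its RefSeq span, and kept 4 peaks. In amino acid catabolism, Hal, which degrades histidine, lost a peak of 5.32 at 0.38% of the span, 119 nt from a Wtap-HKO block, and Nags, which makes the activator of the urea cycle, lost a peak of 6.59 in mid gene and kept both end peaks. All 5 lost peaks of the cytochrome P450 and conjugation list, in 4 genes that include Cyp3a13, Ugt2b34 and Ugt2b5, lay in the final 10%.

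Solute carriers lost 64 of 290 peaks (22.1%, 17.7 to 27.2) in 50 genes, 30 of the 63 placed ones in the final 10%. Slc27a2, Slc10a1 and Slc25a20 are also in the metabolic lists above. The highest fold enrichments were in Slc36a4, an amino acid transporter (22, just beyond the annotated end, 2969 nt from a Wtap-HKO block), and Slc25a48, a mitochondrial carrier (21.1 and 4.90, with a kept 3′ peak of 10.3 and 9.58). Zinc finger genes named Zfp lost 96 of 588 peaks (16.3%, 13.6 to 19.5) in 80 genes, with 22 of 94 placed peaks in the final 10%. The median fold enrichment of these lost peaks was 5.14. For none of the gene lists were the positions of overlapped peaks counted. Zfp607a lost a peak of 29.9 and kept 2 peaks of 36.0 and 29.9 just upstream. Zfp genes have many similar copies, so their peaks are uncertain. The solute carrier share lay above 13.9% with its whole interval, and the Zfp interval held it.

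Among regulators, nuclear receptors and liver transcription factors lost 18 of 94 peaks (19.1%, 12.5 to 28.3) and clock genes 8 of 34 (23.5%, 12.4 to 39.996), and both intervals held 13.9%. Thrb, a thyroid hormone receptor, lost 3 of 5 peaks (3.70, 3.58 and 9.84), all near its 3′ end. Onecut2, a liver transcription factor, lost 4 of 6 (8.56, 6.25, 5.40 and 8.17). Per2, a clock repressor, lost the last of 3 peaks (5.93 at 98.5% of the span), 178 nt from a Wtap-HKO block, and Bhlhe41, another clock repressor, lost 1 of 2 (5.90). Cell cycle, p53 and apoptosis genes lost 5 of 32 (15.6%), among them Casp9 and the death activator Bcl2l11 (25.5 at 14.7% of the span, with a kept 3′ peak of 11.4 and 3.14).

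Chromatin modifiers and remodellers lost 18 of 205 peaks, 8.78% (5.63 to 13.5), with the whole interval below 13.9%. The interval held the share over all peaks at a fold enrichment of at least 2 (17 of 201, 5.35 to 13.1, against 12.8%). It also did so at a fold enrichment of at least 5 and with 1 peak per gene (1 of 56, 0.32 to 9.45, against 6.98% of all). Of the 16 placed lost peaks, 3 were in the final 10%. Kmt2c, a histone methyltransferase, lost 2 of 6 peaks (3.35 and 13.6), and Arid2, a chromatin remodelling subunit, lost 1 of 3 (6.81), 89 nt from a Wtap-HKO block. Splicing regulators lost 7 of 61 (11.5%), which were 4 peaks of Hnrnpf, 2 of 12 in Son (2.52 and 1.82) and 1 in Srrm2. Inflammatory signalling genes lost 4 of 54 (7.41%, 2.92 to 17.6), in Rela, Socs2 and Socs7. Rela, a subunit of NF-kappaB, lost a peak of 2.55 at 95.5% of the span, 88 nt from a Wtap-HKO block.

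The genes of the m6A machinery were counted beside the same 13.9% over all peaks of retained genes. In the writer complex list, 2 of 22 peaks (9.09%, 2.53 to 27.8) were lost, both in Zc3h13, which anchors the complex in the nucleus. They had fold enrichments of 3.07 at 76.8% and 5.67 at 99.0% of the span, and the other 3 Zc3h13 peaks were kept with 4.77, 6.96 and 8.55 in Wtap flox/flox. In the readers and erasers list, 1 of 13 was lost. Alkbh5, an m6A demethylase, lost a peak of 3.08 at 80.2% of the span and kept its 690-nt 5′ peak, which had 3.26 in the controls and 6.02 in Wtap-HKO. Both intervals held 13.9%.

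Lost peaks were spread over the genome. On chromosomes with at least 100 peaks of retained genes, between 11.5% and 16.5% of peaks were lost. The library kit named in the labels was not stated to keep strand, and reads of overlapping genes on opposite strands may not be separable. A Wtap flox/flox peak on the other strand lay over 109 lost peaks (5.40%) and 859 overlapped ones (6.86%). For a Wtap-HKO peak on the other strand, the numbers were 12 lost peaks (0.59%) and 871 overlapped ones (6.96%). This last contrast is not independent of the rule, since lost peaks were chosen for having no Wtap-HKO block on their own strand. In all, 156 lost and 1177 overlapped peaks shared bases with a peak assigned to another gene. The lost peak of ENSMUSG00000108555, one of the highest in fold enrichment, was among them and lay opposite a peak of Hddc3.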

How the data were processed

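The data were m6ARIP-seq of poly(A)+ RNA from the livers of Wtap-HKO mice and their Wtap flox/flox controls, with 2 IP and 2 input libraries per genotype sequenced as 150-nt read pairs. Reads were trimmed with fastp 0.19.11 and aligned to GRCm38 with BWA 0.7.12, per the submitters' processing notes, which also name HOMER 4.9.1 for motifs. The authors called peaks with exomePeak and deposited 1 list per genotype, with, for each peak, its exonic blocks, the fold enrichment (a ratio of IP over input) and the log10 of its p-value and of its FDR. The log10 FDR, a score that runs down to minus infinity, was used as the authors deposited it. How replicates were combined and which normalisation was used are not given in the sources used here. The authors' list of differential peaks holds their own comparison (fold changes and p-values) and was not used.

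Exonic blocks of the 2 lists were compared by overlap on the same chromosome and strand, and 1 shared base counted as overlap. The depth of the libraries is not in the lists, so the precision of a single peak is unknown and intervals (Wilson for shares, Newcombe for differences, 95%) cover counting error only. Positions used RefSeq gene spans of GRCm38.p6, matched by symbol and chromosome with 1000 nt of room at either end, and the peak's own strand. The overlap code was tested on a simulated list with planted losses. Python 3.11.15, numpy 2.4.6, pandas 2.3.3 and matplotlib 3.10.9 were used.

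The members and the gene lists were chosen with earlier results of these data known. Genes were named by a fixed rule: Wtap, the 8 lost peaks of highest fold enrichment, the 6 genes with most lost peaks, up to 2 genes per list with the lost peaks of highest fold enrichment, the 3 peaks on either side of the overlap limit, and the 3 genes with most peaks among those in which all were lost. Examples of opposite peak positions, genes with an FDR listed as 0 and genes with a motif match were named after their values were seen. Some genes that the rule names are not reported here. Alternatives were other overlap rules, thresholds and end regions. The motif comparison planned for all peaks needs a genome of the build, which was not used here.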

Additional observations from a re-analysis of the deposited data

How the results depend on the processing

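The number of lost peaks stayed within 1.5 times of 2019 in 8 of 11 alternatives, from 1701 (both lists limited to an FDR under 1e-05) to 2923 (under 50% of bases shared). It was 617 with a Wtap flox/flox fold enrichment of at least 5, 565 with 1 peak per gene and 489 with an FDR under 1e-20. The last limit, the removal of peaks that share bases with a peak of another gene, the limit to genes over 5000 nt and the FDR bins were chosen after seeing the data. The difference in share in the final 10% of the span (6.58 points) turned to -11.1 with a fold enrichment of at least 5, and that in the first 10% (-7.52) turned to 4.16. The difference in the final 10% was 3.64 with a fold enrichment of at least 2, 9.11 with a Wtap-HKO fold enrichment of at least 2, 2.86 (-1.69 to 7.45) with 1 peak per gene, 21.2 with an FDR under 1e-20 and 0.36 for an edge within 200 nt of the end. The cause was not tested. The median fold enrichment of lost peaks (3.51) was 3.93 with under 50% shared, 3.83 and 7.76 with a fold enrichment of at least 2 and 5, 3.40 with a Wtap-HKO fold enrichment of at least 2, 5.49 with 1 peak per gene and 3.10 with an FDR under 1e-20. By construction, limits on fold enrichment remove weak peaks. The share lost in fatty acid oxidation (34.4%) was 14.3% (3 of 21) with a fold enrichment of at least 2, where it was 12.8% over all peaks, and 0 of 13 with 1 peak per gene (6.98% over all). In cholesterol and bile acids it was 0 of 10 with a fold enrichment of at least 5 (7.53% over all). The intervals of these counts, 0 of 13 and 0 of 10, reach up to 22.8% and 27.8% and hold the shares over all peaks. The share over all peaks itself ranged from 6.18% (FDR under 1e-20) to 20.1% (under 50% shared). In these 2 settings it was 12.7% and 30.3% in solute carriers, whose interval stayed above the share over all peaks in each of the 11 alternatives. In chromatin modifiers it was 0 of 113 and 12.2% in these 2 settings. The chromatin interval held the share over all peaks at a fold enrichment of at least 2 (17 of 201, 5.35 to 13.1, against 12.8%). It also did so at a fold enrichment of at least 5 and with 1 peak per gene. No paired analysis was possible because each genotype has 1 list for its 2 replicates, and for the same reason no replicate could be left out. The motif comparison over all peaks was not run, as no genome of the build was used here.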
